A study of Homo sapiens with 4 samples.

Results

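The genes followed here act in cytosolic DNA sensing: CGAS, STING1, IFI16, AIM2, TREX1, MRE11, PRKDC, XRCC5, XRCC6 and ENPP1. They were chosen by name and function, with earlier results of these data known. Each symbol matched 1 of the 58812 Ensembl genes in the count tables, so 10 of 10 were found. Total RNA was sequenced from A549 cells, a long-established line grown from a human lung carcinoma, 24 hr after transfection with 1 µg of plasmid. The plasmid was either pCMV6-Entry, the empty vector (n = 2 libraries), or SAMD9-Myc-DDK, which encodes tagged SAMD9 (n = 2 libraries). Both groups therefore received foreign DNA, and untransfected cells were not analysed here. The share of cells that took up plasmid is not given in the sources used here.

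Library totals ranged from 29301854 to 39670083 counts. SAMD9 itself, the transfected gene, had 444 and 400 counts with empty vector against 220123 and 184350 with SAMD9, so no library went against its label. The keratin genes KRT8, KRT18 and KRT7 were abundant (at least 39338 counts in every library), whereas KRT19 had at most 10 counts and EPCAM between 159 and 216. Of the alveolar type II markers, the surfactant gene SFTPC had 10, 10, 2 and 0 counts and the lung transcription factor gene NKX2-1 had 6, 4, 2 and 2, but ABCA3 had between 4064 and 5531, and LAMP3 went from 32 and 30 counts with empty vector to 5507 and 4372 with SAMD9. The labels do not say whether a group's libraries came from separate cultures, and the p-values below measure only the spread between these libraries, which may be technical. In bulk RNA, more RNA per cell and more cells that express a gene cannot be told apart.

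Double-stranded DNA in the cytosol is a danger signal. The enzyme cGAS binds it and makes the second messenger cGAMP, which activates STING on the endoplasmic reticulum; STING then recruits the kinase TBK1, which phosphorylates IRF3. IFI16 and AIM2 are DNA-binding proteins of the PYHIN family, the former acting with STING and the latter assembling an inflammasome with caspase-1. The exonuclease TREX1 degrades cytosolic DNA, the ectoenzyme ENPP1 hydrolyses extracellular cGAMP, and the DNA repair proteins MRE11, DNA-PKcs (PRKDC), Ku80 (XRCC5) and Ku70 (XRCC6) have also been described as DNA sensors.

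With SAMD9, IFI16 and STING1 rose, PRKDC fell slightly, and the other 5 genes that could be tested (TREX1, MRE11, XRCC5, XRCC6 and ENPP1) did not pass the test. CGAS and AIM2 had too few counts to test. Thus 2 of the 8 tested members were higher, where 15.3% of all 19814 genes tested were called higher, and 1 was lower, where 12.2% of all genes were. Genes were called where the two-sided edgeR quasi-likelihood test gave a p below 0.05 after Benjamini-Hochberg adjustment over every gene tested. Levels are given as counts, as CPM (library-size scaled counts with TMM normalisation, which rescales library totals so that most genes do not shift) or as RPKM (that CPM per kilobase of the listed exon length). Differences are log2 fold changes, SAMD9 against empty vector, with their standard error (SE).

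**Figure D1:**
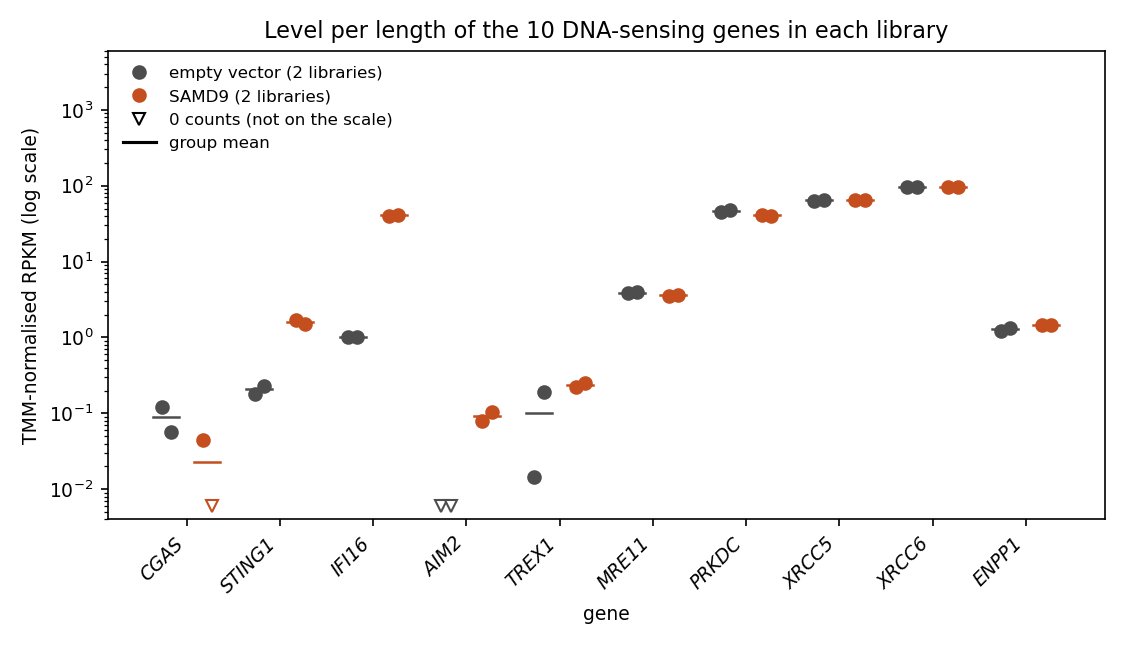
TMM-normalised RPKM (log axis) of each of the 10 genes in each library, grey for empty vector and orange for SAMD9, with short lines at the group means and open triangles for libraries with 0 counts. IFI16 moved from about the level of ENPP1 to that of PRKDC, and the Ku genes XRCC5 and XRCC6 stayed at the top in both groups.

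IFI16 (ENSG00000163565, chromosome 1, 158999968 to 159055155, plus strand, GRCh38) had the largest log2 fold change of the 8 tested members. It had 170 and 179 counts with empty vector against 7963 and 6255 with SAMD9. These are 5.43 and 5.34 CPM against 213 and 218 CPM, so the groups were far apart and the replicates close together. The rise was 40.0-fold, or 5.32 on the log2 scale (SE 0.09, 95% interval 5.14 to 5.51, edgeR adjusted p = 1.6e-22). By size of rise IFI16 ranked 126 of the 19814 genes tested. Of the 31-base words in IFI16 transcripts, 0.549% also occur in PYHIN1 or the pseudogene PYHIN5P, and no other gene overlaps its exons in the deposited coordinates.

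AIM2 (ENSG00000163568, chromosome 1, 159062484 to 159147096, minus strand) lies beside IFI16 in the opposite orientation. It had 0 and 0 counts with empty vector against 6 and 6 with SAMD9, too few for the filter. The upper limit for a count of 0 was taken as 3 counts over the empty vector group. Against that limit, AIM2 was at least 3.93-fold higher with SAMD9 if its SAMD9 counts are taken as exact. Between 71.8% and 74.1% of counts from 1 to 20 were even in each library, so bounds on such low counts may be too high. The lower 95% counting limit over both groups was 2.73-fold. Without the filter on low counts, the edgeR adjusted p for AIM2 was 0.21. The remaining genes of this cluster were also near silence. PYHIN1 had 0 and 0 counts with empty vector against 23 and 9 with SAMD9, at least 10.5-fold higher on the same terms (lower counting limit 8.04). MNDA, a gene of myeloid cells, had 0 and 0 against 2 and 2, with a lower counting limit of 0.648, so a rise in MNDA was not shown. Of the 4 PYHIN genes, only IFI16 had enough counts to test, and only IFI16 reached more than 1 CPM.

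The leukocyte markers PTPRC, CD3E and LYZ, whose cells express PYHIN genes, had at most 3 counts in any library. Of the other leukocyte markers, CD14 had 2.81 and 2.00 CPM with empty vector against 2.65 and 2.09 CPM with SAMD9, and ITGAM had 2.87 and 3.52 CPM against 3.803 and 4.256 CPM. CD68 had 4 and 2 counts with empty vector against 16 and 11 with SAMD9, and 0 of these 3 tested markers were called by edgeR (1, CD68, at an unadjusted p of 0.031, adjusted p = 0.094). Their part in the IFI16 rise was not tested.

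The upstream sequences of the 4 PYHIN genes are shown as context for these neighbours, of which only IFI16 had enough counts to test. They are from RefSeq promoter windows (GRCh38.p14, 250 bases before to 50 after a transcript start), cut to the longest upstream stretch that lies in no annotated exon, 5′ to 3′ on the gene's strand. The IFI16 stretch belongs to the downstream of its 2 windows. Both windows (transcript starts at 159008991 and 159009907) lie inside the listed IFI16 gene, which begins at 158999968. The AIM2 window (transcript start at 159076766, minus strand) also lies inside the listed gene, whose 5′ end is at 159147096. No window therefore covers the listed start of either gene. For IFI16 and PYHIN1 the capitals mark the longest run that both windows share, and for AIM2 and MNDA they mark a match, on either strand, to GAAA and GAAA separated by any 2 bases, the core of the interferon-stimulated response element.
IFI16 (chr1:159009657-159009891, plus strand): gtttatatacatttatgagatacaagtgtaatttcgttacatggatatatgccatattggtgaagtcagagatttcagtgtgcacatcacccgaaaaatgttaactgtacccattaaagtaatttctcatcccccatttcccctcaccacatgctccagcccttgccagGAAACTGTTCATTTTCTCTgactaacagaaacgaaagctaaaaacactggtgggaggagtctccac
PYHIN1 (chr1:158931302-158931551, plus strand): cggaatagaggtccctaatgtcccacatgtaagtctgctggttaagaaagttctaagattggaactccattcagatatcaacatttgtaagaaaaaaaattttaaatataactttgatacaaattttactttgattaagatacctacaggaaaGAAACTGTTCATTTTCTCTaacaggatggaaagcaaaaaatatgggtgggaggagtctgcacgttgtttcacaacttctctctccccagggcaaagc
AIM2 (chr1:159076902-159077016, minus strand): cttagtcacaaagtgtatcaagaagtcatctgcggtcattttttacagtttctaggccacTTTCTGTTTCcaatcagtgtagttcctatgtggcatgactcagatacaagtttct
MNDA (chr1:158831101-158831316, plus strand): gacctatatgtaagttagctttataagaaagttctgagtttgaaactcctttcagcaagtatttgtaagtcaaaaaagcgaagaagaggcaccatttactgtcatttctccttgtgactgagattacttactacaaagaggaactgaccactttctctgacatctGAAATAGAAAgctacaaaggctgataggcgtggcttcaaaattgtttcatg

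The run shared by IFI16 and PYHIN1 is 19 bases long, against 12 bases or fewer for every other pair of PYHIN windows compared. The match to the core of the interferon-stimulated response element begins 190 bases before the transcript start in AIM2 and 85 bases before it in MNDA. The motif, searched on both strands, occurs in 3.57% of the 35116 full-length windows of the table. IFI16, whose counts rose most, has no match in either of its 2 windows. The windows were also searched on both strands for TTC and GAA separated by any 3 bases, the GAS element bound by STAT dimers (7.66% of all windows), and for GGGA and CC separated by any 4 bases, a kappaB-like motif (25.6%). Windows were found for 6 members (IFI16, AIM2, TREX1, MRE11, XRCC6 and ENPP1), and CGAS, STING1, PRKDC and XRCC5 had no entry. Beside the AIM2 match, the only hit in a member window was 1 kappaB-like match in XRCC6. A match is only a description of the letters, and no match says only that they are not in this window.

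CGAS (ENSG00000164430, chromosome 6, 73413515 to 73452276, minus strand), which encodes the cGAMP synthase, was barely detected in any library. It had 16 and 8 counts with empty vector against 7 and 0 with SAMD9, or 0.511 and 0.239 CPM against 0.187 and 0 CPM. With 3 counts taken as the upper limit for a count of 0, that last library could hold about 0.105 CPM. Both SAMD9 values lay below both empty vector values. The summed counts, 24 against 7, gave 0.287 as the scaled ratio (95% counting interval 0.104 to 0.685), which leaves out the spread between libraries. CGAS did not pass the filter, and without the filter its log2 fold change was -1.87 (SE 1.07, edgeR adjusted p = 0.32), so a difference was not detectable at this depth. Of its 31-mers 10.9% also occur in other genes.

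STING1 (ENSG00000184584, chromosome 5, 139475534 to 139482935, minus strand), the receptor for cGAMP, was low with empty vector and rose. Its counts were 22 and 30 with empty vector against 248 and 166 with SAMD9. In CPM these are 0.702 and 0.895 against 6.64 and 5.79, so every SAMD9 library was above both empty vector libraries. The rise was 7.74-fold, or 2.95 on the log2 scale (SE 0.27, 95% interval 2.38 to 3.52, edgeR adjusted p = 1.3e-08), and ranked 361 of the genes tested. Per length, STING1 remained far below IFI16: the ratio of STING1 to IFI16 RPKM was 0.178 and 0.230 with empty vector against 0.0428 and 0.0365 with SAMD9.

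The regulators TREX1 and ENPP1 did not pass the test. TREX1 (ENSG00000213689, chromosome 3, 48465046 to 48467645, plus strand) had 1 and 14 counts with empty vector against 18 and 16 with SAMD9. The SAMD9 libraries were both above the empty vector ones, but the latter lay far apart. The log2 fold change was 1.17 (SE 0.84, edgeR adjusted p = 0.35, 95% interval -0.58 to 2.93). It ranged from 0.31 without empty vector replicate 1 to 3.87 without empty vector replicate 2 (adjusted p = 0.87 and 0.074). Of the 2197 exonic bases of TREX1, 1876 (85.4%) are also exons of ATRIP on the same strand, and 90.1% of its 31-mers occur in ATRIP. How the authors' counting treated reads in both genes is not given in the sources used here, so the low TREX1 counts may leave out most of its reads and its level is uncertain. ATRIP, which holds those shared exons, had 502 and 613 counts with empty vector against 645 and 434 with SAMD9 (log2 fold change -0.08, SE 0.12, edgeR adjusted p = 0.70).

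ENPP1 (ENSG00000197594, chromosome 6, 131808016 to 131895155, plus strand) had 321 and 369 counts with empty vector against 452 and 346 with SAMD9. Its CPM values were 10.25 and 11.01 against 12.11 and 12.07. The groups did not overlap, yet the log2 fold change of 0.18 with an SE of 0.14 (edgeR adjusted p = 0.36) had a 95% interval from -0.10 to 0.47, or from -6.65% to 38.4%. Under scaling by total counts it was -0.0033.

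Per length, the 3 DNA-PK genes had the highest levels of the members with empty vector. The catalytic subunit gene PRKDC (ENSG00000253729, chromosome 8, 47773108 to 47960183, minus strand) had 21688 and 24517 counts with empty vector against 23646 and 17804 with SAMD9, or 692 and 732 CPM against 633 and 621 CPM. The groups did not overlap, and PRKDC fell by 0.18 on the log2 scale (SE 0.05, edgeR adjusted p = 0.013), a change of -11.9%. The call ended without SAMD9 replicate 1 (adjusted p = 0.11) or SAMD9 replicate 2 (adjusted p = 0.21).

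The Ku genes encode the heterodimer that binds DNA ends and recruits the catalytic subunit. XRCC5 (ENSG00000079246, chromosome 2, 216107464 to 216206303, plus strand) had 342 and 358 CPM with empty vector and 356 and 353 CPM with SAMD9. XRCC6 (ENSG00000196419, chromosome 22, 41621119 to 41664048, plus strand) had 315 and 318 CPM against 317 and 313 CPM. In both genes the groups overlapped, with log2 fold changes of 0.02 (95% interval -0.10 to 0.14, edgeR adjusted p = 0.84) and -0.01 (95% interval -0.13 to 0.11, adjusted p = 0.94). XRCC6 shares 28.0% of its 31-mers with its pseudogenes, of which XRCC6P2 had between 270 and 331 counts per library.

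MRE11 (ENSG00000020922, chromosome 11, 94415578 to 94493908, minus strand), the nuclease of the MRE11-RAD50-NBN complex, had 29.3 and 30.3 CPM with empty vector and 27.2 and 27.9 CPM with SAMD9. The groups did not overlap, and the log2 fold change of -0.11 with an SE of 0.10 (edgeR adjusted p = 0.43, 95% interval -0.32 to 0.09) did not pass. These small differences depend on the scaling: total counts in place of TMM moved the median gene by -0.19, and MRE11 (-0.30), PRKDC (-0.37), XRCC5 (-0.17) and XRCC6 (-0.20) were then all called lower, as were 28.5% of all genes tested. IFI16 and STING1 were called higher under each of the 8 alternatives run. Of all genes, the share called higher was 13.3% with DESeq2, 8.29% with no filter, 14.7% with a replicate block, 9.96% under total-count scaling, 11.3% and 10.6% without SAMD9 replicate 1 or 2, and 14% and 14.6% without empty vector replicate 1 or 2. In the same order, apart from total-count scaling, the share called lower was 9.45%, 6.71%, 11.8%, 8.38%, 6.81%, 10.4% and 10.7%.

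**Figure D2:**
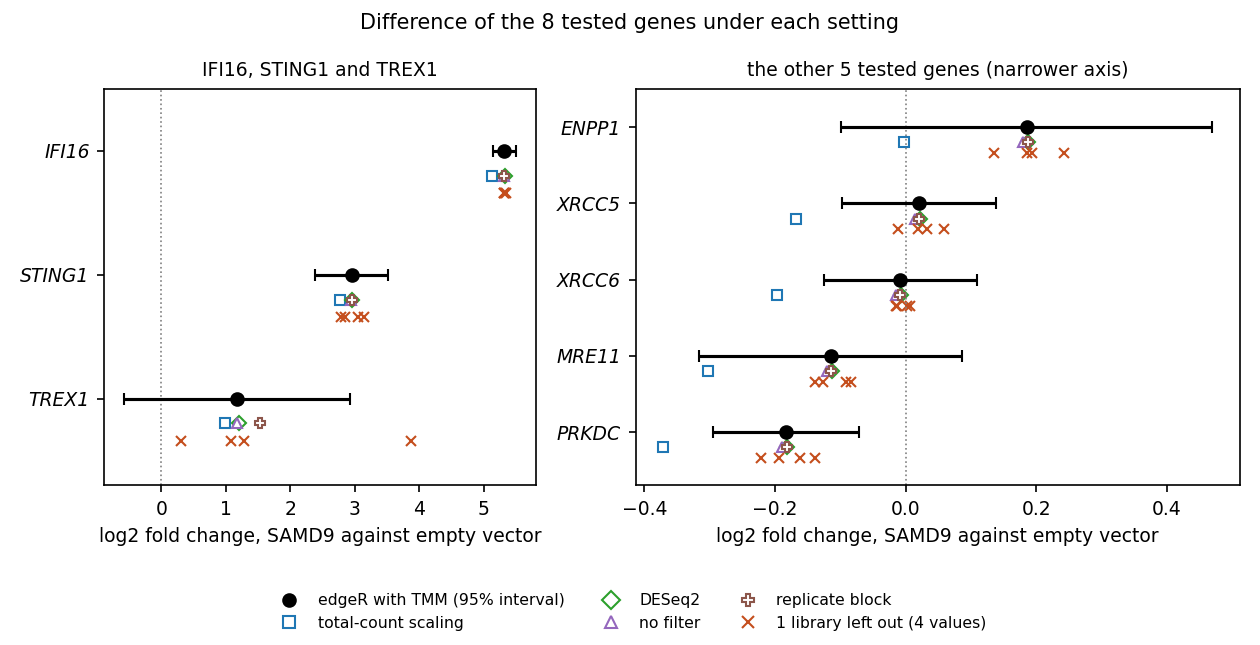
Log2 fold change (SAMD9 against empty vector) of the 8 tested genes, black with the 95% interval of the edgeR fit, with the values under each alternative below it; the right panel has a narrower axis. IFI16 and STING1 stay clear of 0 under all of them, TREX1 ranges from 0.31 to 3.87, and total-count scaling moves the 5 genes on the right downwards.

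Within the complexes, subunit genes did not all move alike. The ratio of XRCC6 to XRCC5 RPKM was 1.53 and 1.48 with empty vector against 1.48 and 1.47 with SAMD9, so it overlapped between groups. The ratio of PRKDC to XRCC5 was 0.718 and 0.724 against 0.630 and 0.623, lower in both SAMD9 libraries. NBN, the regulatory subunit that partners MRE11, had 80.9 and 84.5 CPM with empty vector against 190 and 202 with SAMD9. NBN rose by 1.25 on the log2 scale (SE 0.07, edgeR adjusted p = 6.9e-13), and the NBN to MRE11 ratio of RPKM went from 3.45 and 3.48 to 8.73 and 9.06. RAD50, the ATPase of the complex, had a log2 fold change of -0.15 with an SE of 0.06 (edgeR adjusted p = 0.083; called lower under total-count scaling, adjusted p = 0.00018, and without empty vector replicate 2, adjusted p = 0.010), and its ratio to MRE11 was 4.70 and 4.197 against 4.36 and 4.29. These ratios do not depend on the scaling, and with 2 libraries against 2 they were not tested.

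**Figure D3:**
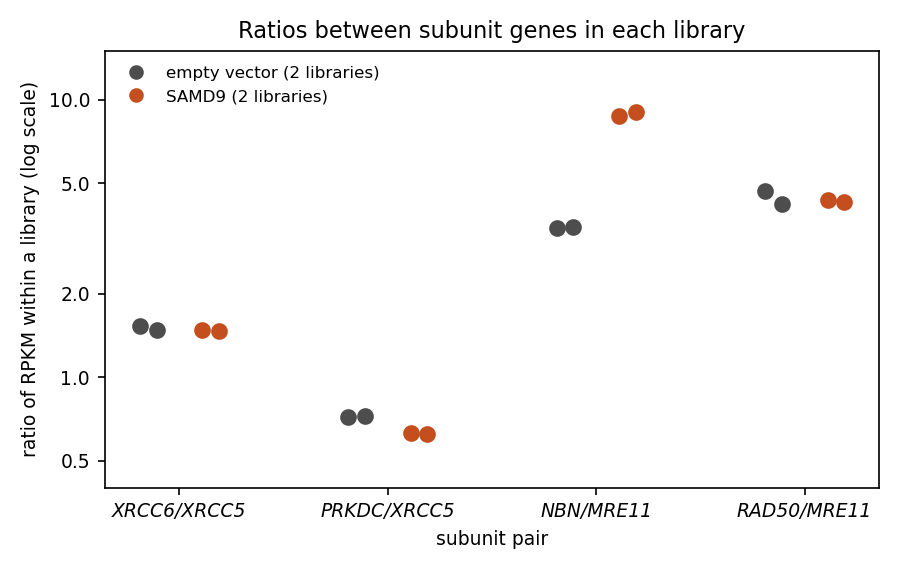
Ratio of RPKM between pairs of subunit genes within each library (log axis), grey for empty vector and orange for SAMD9. The NBN to MRE11 ratio is between 3.45 and 3.48 with empty vector and between 8.73 and 9.06 with SAMD9, whereas the RAD50 to MRE11 and XRCC6 to XRCC5 ratios overlap between groups.

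Ordered by RPKM, the empty vector libraries ran from XRCC6 (96.3 ± 0.659, SD, n = 2), XRCC5 (64.0 ± 2.13), PRKDC (46.2 ± 1.81) and MRE11 (3.88 ± 0.0992) through ENPP1 (1.28 ± 0.0653) and IFI16 (1.02 ± 0.0113) to STING1 (0.207 ± 0.0355), TREX1, CGAS and AIM2. STING1, TREX1 and CGAS overlapped with their neighbours in that order, and the other neighbours did not. With SAMD9, IFI16 (40.8 ± 0.661) took the place beside PRKDC (40.7 ± 0.558), from which it did not differ beyond the spread, and STING1 (1.61 ± 0.156) passed ENPP1 (1.46 ± 0.00296). CGAS was last, at 0.0226 ± 0.0319. The listed lengths count every annotated exon, so genes with long rare exons read low on this scale. The 10 genes together took between 0.145% and 0.155% of all counts in each library, of which the DNA-PK genes held 96.7% in each empty vector library and 83.4% and 82.9% in the SAMD9 libraries.

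The other genes of the pathway were taken as 8 lists of 114 genes, of which 103 could be tested. Of these, 31 rose (30.1%, against 15.3% of all genes) and 13 fell (12.6%, against 12.2%), with a median log2 fold change of 0.04 against -0.01 over all genes. The lists were chosen with earlier results of these data known, so these shares are not independent support for a rise. CASP1, CARD16 and ZBP1 are among the 31 but passed the filter through the SAMD9 libraries alone. Leaving out genes under 10 counts in both empty vector libraries, an alternative chosen after seeing the data, 28 of 100 rose (28.0%, against 14.3% of the 19387 genes left) and 13 fell (13.0%, against 12.5%). Under total-count scaling 21 of the 103 rose and 42 fell, where 9.96% of all genes were higher and 28.5% lower, so the direction of small differences below depends on the scaling. Higher and lower calls by list were then 6 and 1 for STING kinases and transcription factors, 5 and 13 for STING regulators, 1 and 5 for cGAS cofactors, 1 and 4 for cGAMP transport, 2 and 3 for degradation, 3 and 1 for the inflammasome list, 1 and 8 for other sensors, and 2 and 7 for the partners of MRE11 and DNA-PK. With SAMD9 replicate 1 left out 7 of the pathway genes fell, and with SAMD9 replicate 2 left out 4.

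Downstream of STING, 7 of 11 kinase, adaptor and transcription factor genes rose (63.6%, against 15.3% of all genes) and 0 fell (against 12.2%). The median was 0.47. IRF7, the interferon-inducible relative of IRF3, went from 13.4 and 12.6 CPM to 396 and 408 CPM, a log2 fold change of 4.95 (SE 0.08). RELA, the NF-kB p65 subunit gene, rose by 1.13 (SE 0.06), and AZI2, a TBK1 adaptor gene, by 1.27 (SE 0.09), although 55.4% of the exonic bases of AZI2 overlap CMC1 on the opposite strand. IKBKE, a kinase gene related to TBK1, rose by 1.35 (SE 0.11). TBK1 rose by 0.28 (SE 0.08, edgeR adjusted p = 0.014), a call lost under total-count scaling (0.09) and without SAMD9 replicate 1 or 2 (adjusted p = 0.062 and 0.13). IRF3 had a log2 fold change of 0.13 with an SE of 0.07 (edgeR adjusted p = 0.22), which turned to -0.06 under total-count scaling and was called higher without empty vector replicate 2 (0.20, adjusted p = 0.045). IKBKE, TBK1 and IRF3 were singled out with their values known.

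Of 28 genes that traffic, ubiquitinate or otherwise regulate STING, 8 rose (28.6%, against 15.3% of all genes) and 6 fell (21.4%, against 12.2%). The median was -0.02. The rises with the lowest p-values were those of NLRC5 (5.01, SE 0.08), USP18, a protease that removes ISG15 (4.61, SE 0.08), and TRIM14 (2.94, SE 0.07). The autophagy kinase gene ULK1 had the largest fall, from 175 and 154 CPM to 116 and 106 CPM (-0.57, SE 0.07). Without SAMD9 replicate 1, 5 rose and 2 fell, and without SAMD9 replicate 2, 3 fell.

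Of 11 cGAS cofactor genes, 2 rose (18.2%, against 15.3% of all genes) and 1 fell (9.09%, against 12.2%). The median was -0.04. The deacetylase gene HDAC6 rose by 0.96 (SE 0.08) and NONO by 0.28 (SE 0.05; not called under total-count scaling), whereas ZYG11B fell by 0.33 (SE 0.08). The fall in ZYG11B was no longer called without SAMD9 replicate 2. Of 9 tested genes for cGAMP transport and hydrolysis, 1 rose (11.1%, against 15.3% of all genes) and 2 fell (22.2%, against 12.2%). The median was -0.24. The transporter gene ABCC1 rose by 0.38 (SE 0.05), and the volume-regulated anion channel genes LRRC8A and LRRC8D fell by 0.24 (SE 0.07) and 0.31 (SE 0.09). Neither channel gene was called without SAMD9 replicate 2, nor was LRRC8D without SAMD9 replicate 1 or empty vector replicate 2. ENPP3, a relative of ENPP1, had 0 and 0 counts with empty vector against 12 and 0 with SAMD9.

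Of 11 genes of nucleic acid degradation and editing, 5 rose (45.5%, against 15.3% of all genes) and 1 fell (9.09%, against 12.2%). The median was 0.18. SAMHD1, which degrades deoxynucleotides, went from 21.2 and 23.4 CPM to 313 and 349 CPM (log2 fold change 3.89, SE 0.08), ADAR, which edits double-stranded RNA, rose by 1.94 (SE 0.05) and the lysosomal nuclease gene DNASE2 by 0.48 (SE 0.13), a call lost under total-count scaling or without empty vector replicate 1. RNASEH1, which removes RNA from RNA-DNA hybrids, fell by 0.26 (SE 0.08). Without SAMD9 replicate 1 or without empty vector replicate 1, 3 rose and 0 fell, and without SAMD9 replicate 2, 0 fell.

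Of the AIM2 inflammasome genes, only 4 of the 9 found had enough counts to test, and CARD16 and CASP1 passed the filter through the SAMD9 libraries alone, so nothing is read from their share. CASP1, the caspase-1 gene, had 2 and 2 counts with empty vector against 418 and 423 with SAMD9, 207 times as many after scaling (95% counting interval 80.4 to 760). GSDMD, whose product forms the membrane pore, rose by 1.98 (SE 0.14, edgeR adjusted p = 7.8e-11). CARD16, a close relative of CASP1, had 0 and 0 counts against 42 and 12, at least 17.7-fold higher with the SAMD9 counts taken as exact (lower counting limit 13.9), and its SAMD9 libraries lay far apart. IL18, a cytokine gene, fell by 0.26 (SE 0.07), a call lost without SAMD9 replicate 1 or 2. The adaptor gene PYCARD had 2, 3, 4 and 13 counts, NLRP3 4, 0, 4 and 3, and IL1B 8, 0, 10 and 12, in the order empty vector 1 and 2 and SAMD9 1 and 2. With so few genes, the median of the list is not read: it was 4.80, or 3.06 with CARD16 at its bound, and ranged from 1.92 without SAMD9 replicate 1 to 7.40 without SAMD9 replicate 2. It was 2.04 without empty vector replicate 2.

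Of 15 other DNA sensor genes tested, 3 rose and 1 fell (median 0.01), or 2 and 1 of 14 without ZBP1. ZBP1, a sensor of Z-form nucleic acids, had 0 and 0 counts against 424 and 317, and passed the filter through the SAMD9 libraries alone. POLR3D, a subunit gene of RNA polymerase III, rose by 0.25 (SE 0.07, edgeR adjusted p = 0.012), a call lost under total-count scaling and without SAMD9 replicate 1, SAMD9 replicate 2 or empty vector replicate 2, and POLR3B fell by 0.72 (SE 0.14, adjusted p = 0.00027). Without SAMD9 replicate 2, 1 rose, and without empty vector replicate 1, 5 rose. Of 14 partners of MRE11 and DNA-PK, 2 rose (14.3%, against 15.3% of all genes) and 1 fell (7.14%, against 12.2%). The median was -0.06. Beside NBN, DCLRE1C, which encodes the nuclease Artemis, rose by 1.14 (SE 0.10), and the DNA polymerase gene POLM fell by 0.41 (SE 0.13). The fall in POLM was not called with DESeq2, without SAMD9 replicate 2 or without empty vector replicate 2.

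**Figure D4:**
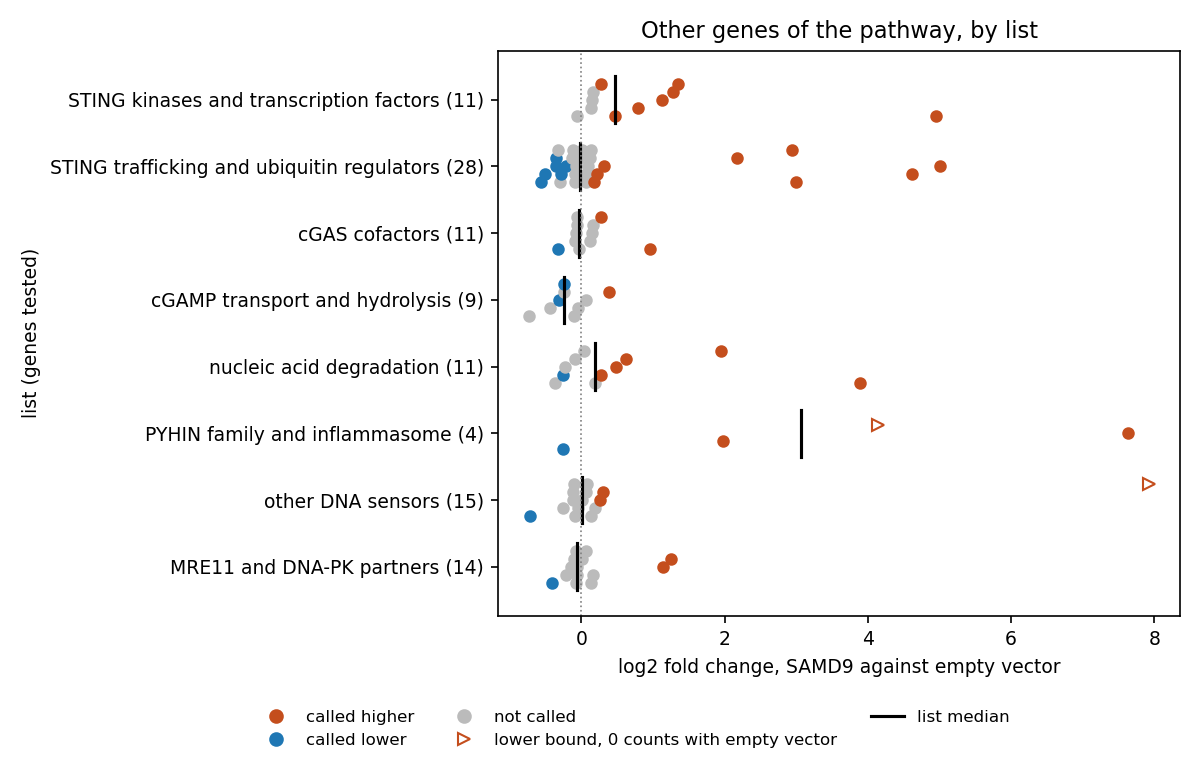
Log2 fold change of the 103 tested pathway genes by list, with orange for genes called higher, blue for genes called lower, grey for the rest, black bars at list medians and open triangles at the lower bound for genes with 0 counts with empty vector. Medians lie between -0.24 and 0.18 except for STING kinases and transcription factors (0.47) and for the PYHIN and inflammasome list, whose 4 tested genes are too few to read.

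The genes whose pattern over the 4 libraries was closest to a member's were found by Euclidean distance between log2 CPM values, each gene centred on its own mean, among 13068 named genes with an average of at least 1 log2 CPM. For IFI16 they were TNFSF13B (0.145), APOL1 (0.174) and RAET1L (0.258), and for STING1 they were PRKD2 (0.136), SOCS3 (0.171) and TENT5A (0.175). The log2 CPM values held a prior count of 2, which shrinks the differences of genes with few counts. A small distance therefore does not mean an equal fold change. TNFSF13B, APOL1 and RAET1L had log2 fold changes of 6.12, 5.46 and 5.54, against 5.32 for IFI16. For CGAS the closest were FER1L6 (0.926), GOLGA4-AS1 (0.998) and RCOR2 (1.09), and for TREX1 DCHS1 (0.902), POU5F1 (1.10) and AFAP1-AS1 (1.13). CGAS and TREX1 lay below the level asked of candidates, so low-count genes like them were left out beforehand. Nothing is read from their larger distances.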

How the data were processed

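For each library the authors deposited raw gene counts beside CPM and RPKM. The deposited CPM equalled counts over the library total and the deposited RPKM equalled CPM per kilobase, so neither was tested. STAR 2.5.1a, Subread featureCounts 1.4.6-p5, bcl2fastq and build GRCh38 are named in the submitters' processing notes. The annotation release, the strand setting and the handling of shared reads are not stated in what was used here. Of counts from 1 to 20, between 71.8% and 74.1% per library were even, so counting intervals may be too narrow.

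Counts were fitted with edgeR 4.0.16 (R 4.3.3, filterByExpr with minimum count 10 and total 15, TMM, glmQLFit, glmQLFTest, no covariate), checked on simulated data. SE is the absolute log2 fold change over the square root of F. With 2 libraries against 2, significance rests on spread shared across genes. The replicates differed beyond counting noise (chi-square per degree of freedom 9.35 and 5.00).

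Symbols came from a gene name table or GENCODE 29. Members and lists were chosen with earlier results of these data known. Named by rule are all members, SAMD9, of each list the 3 lowest p and the largest called fall, and the 3 closest patterns for CGAS, STING1, IFI16 and TREX1. Genes named outside this rule include IKBKE, TBK1, IRF3, RAD50, ATRIP, ENPP3, PYHIN1, MNDA, PYCARD, NLRP3, IL1B and the cell type markers. Alternatives were total-count scaling, DESeq2 1.42.0, no filter, a replicate block and leaving out each library. CARD17 was not found. Promoter windows are from RefSeq. One leukocyte marker is not reported here.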

Additional observations from a re-analysis of the deposited data

How the results depend on the processing

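IFI16 (log2 fold change 5.13 to 5.34) and STING1 (2.77 to 3.15) stayed called higher under all 8 alternatives. Total-count scaling divides by library totals alone. It gave 4 members called lower, and 1974 genes higher and 5653 lower. Pathway genes called lower then numbered 1 among STING kinases and transcription factors, 13 among STING regulators, 5 among cGAS cofactors, 4 for cGAMP transport, 3 for degradation, 8 among other sensors and 7 among partners of MRE11 and DNA-PK. Those called higher numbered 5 among STING regulators, 1 among cGAS cofactors, 2 for degradation and 1 among other sensors. XRCC5 turned to -0.17 and ENPP1 to -0.0033. DESeq2 called 0 partners of MRE11 and DNA-PK lower. Leaving out 1 library at a time, members called lower ranged from 0 to 1 and all genes called lower from 1466 to 2279. STING regulators ranged from 5 to 8 higher and from 2 to 5 lower, degradation genes from 3 to 4 higher and from 0 to 1 lower, and other sensors from 1 to 5 higher. Those lower ranged from 0 to 1 for cGAS cofactors, from 0 to 3 for cGAMP transport, from 0 to 1 for the inflammasome list and from 0 to 1 for the partners. XRCC5 ranged from -0.012 (without empty vector replicate 1) to 0.0586 (without empty vector replicate 2). XRCC6 ranged from -0.0143 (without empty vector replicate 1) to 0.0064 (without SAMD9 replicate 2), and was 0.0024 without empty vector replicate 2. The causes of these changes were not tested. An arm left with 1 library is assumed to vary like the other.

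Same-numbered libraries shared no clear deviation (correlation 0.00415 over 19814 genes). Whether the libraries were prepared in pairs cannot be told from this value. With the replicate block 2914 genes were higher and 2330 lower, and IFI16 (5.32), STING1 (2.95) and PRKDC (-0.18) kept their calls. CGAS, AIM2 and TREX1 had at most 18 counts in a library, which limits their precision. Leaving out genes under 10 counts in both empty vector libraries, chosen after seeing the data, left 1 inflammasome gene called higher.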
